A study of Oryzias latipes with 10 samples.

Results

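Aminoacyl-tRNA synthetase genes encode the enzymes that join each amino acid to its tRNA. They were followed here in the liver of a small freshwater fish, the medaka Oryzias latipes. Members were the genes of the deposited table whose medaka symbol is that of a synthetase (such as sars, qars or farsa) or of the scaffold proteins aimp1 and aimp2. Of 35 such genes in a table of 25795, 33 reached 1 RPM (read per 1000000 reads) in at least 5 of 10 libraries and were tested, among 14984 tested genes in all. These 33 were 18 cytosolic synthetase genes, 13 mitochondrial ones, whose symbols end in 2, and the 2 scaffold genes. The other 2 mitochondrial genes, vars2 and yars2, had levels from 0 to 3.87 RPM and were not tested. The cytosolic enzymes for arginine and threonine are not analysed here.

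The study compared wild-type fish (WT) with fish in which phod1, written pd1 in some labels, was knocked out (KO). All fish were kept under long days and liver was taken at 12:00. Each genotype had 5 libraries, named WT1 to WT5 and KO1 to KO5, made with Lasy-Seq, which reads the 3' ends of transcripts. The labels give neither sex, age, strain, knockout allele nor batch, and do not say whether each library is 1 animal, so any p reflects how much these samples vary, which may be technical in part. The genome table used for names holds no gene called phod1, so the knockout was not checked at its own transcript.

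Each synthetase recognises 1 amino acid, apart from eprs, whose product handles both glutamate and proline. The enzymes fall into class I and class II, which have unrelated catalytic folds. In animals several cytosolic enzymes are held in a multisynthetase complex with the scaffolds aimp1 and aimp2, while mitochondria use a separate set encoded by nuclear genes. In mammalian cells uncharged tRNA activates the kinase GCN2, and the transcription factor ATF4 then raises many cytosolic synthetase genes together with amino acid synthesis genes such as asns. In fish liver, estrogen drives a large output of egg proteins for export, so the tissue's load of protein synthesis varies with reproductive state.

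Depth was 4542721 to 10112313 reads a library, so that a single read equals 0.0989 to 0.220 RPM. The egg protein genes vit-6, ol-vit1 and 1-sf together took 10.4% to 13.98% of reads in WT1, WT2, WT4 and WT5 but 2.77% in WT3. They took 0.428% to 0.593% in KO1, KO3, KO4 and KO5 but 6.95% in KO2. WT3 and KO2 therefore stood apart from their genotypes. Counts of called synthetase genes are given with and without them, while sums, pairs and other gene lists are given with them only. Of 15 hepatocyte markers 5 were matched by symbol (hpx, fgg, fgb, rbp4 and fga), and their summed level was 7682 to 18299 RPM in WT and 18752 to 24848 in KO.

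Transcripts of 5 of the 18 cytosolic synthetase genes fell in KO liver, those of the enzymes for serine (sars), glutamine (qars), asparagine (nars), glycine (gars) and tyrosine (yars), to a mean level 0.345 to 0.451 times that in WT. The threshold was a limma adjusted p under 0.05, and no cytosolic gene rose, against 1.68% of all tested genes that fell and 1.17% that rose. The log2 fold changes of all 18 lay below 0, from -1.38 to -0.32, with a median of -0.77, where the median over all tested genes was -0.19 and 67.3% of genes lay below 0. None of the 13 mitochondrial genes passed in either direction, and their median was -0.17. Of all genes with a mean level in the range of the cytosolic members 2.35% fell, and 0.67% in the range of the mitochondrial ones. Fold changes are KO minus WT of log2(RPM + 1), a scale that shrinks differences of weakly expressed genes, and ± after them is the SE of the fit. In bulk liver, fewer cells of a type and less RNA per cell cannot be told apart.

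sars, a class II enzyme gene, stood at 88.7, 56.7, 36.1, 99.4 and 130.2 RPM in WT1 to WT5, and at 30.5, 27.3, 27.4, 31.3 and 25.2 RPM in KO1 to KO5. In RPM as deposited all KO libraries lay below all WT libraries and close to each other, while WT spread widely. This separation is lost under TMM scaling, as given below. The TMM factors of the KO libraries ran from 0.773 to 1.11, so how close the KO values lie depends on scaling too. The means were 82.2 ± 36.8 and 28.3 ± 2.50 RPM (SD, n = 5 each), and the log2 fold change was -1.38 ± 0.27 (limma adjusted p = 0.00835). qars, a class I enzyme gene of the multisynthetase complex, stood at 97.0, 45.7, 28.4, 80.2 and 101.2 RPM in WT1 to WT5 and at 29.1, 22.5, 24.8, 22.8 and 22.5 RPM in KO1 to KO5. WT3 was the lowest WT library and lay just under KO1, the only crossing of the groups. The mean fell from 70.5 ± 32.1 to 24.4 ± 2.85 RPM (SD, n = 5 each), with a log2 fold change of -1.35 ± 0.29 (limma adjusted p = 0.0145).

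nars stood at 49.3, 39.6, 25.5, 86.0 and 106.6 RPM in WT1 to WT5 and at 18.7, 28.0, 30.2, 19.0 and 20.9 RPM in KO1 to KO5. Its WT3 value lay below KO2 and KO3, so the groups overlapped. The log2 fold change was -1.20 ± 0.31 (limma adjusted p = 0.0404). gars, whose human counterpart encodes both the cytosolic and the mitochondrial glycine enzyme, stood at 44.1, 21.9, 21.6, 33.8 and 54.0 RPM in WT1 to WT5. In KO1 to KO5 it stood at 18.7, 11.2, 17.3, 9.20 and 19.7 RPM, again with every KO library below every WT library as deposited. Its log2 fold change was -1.12 ± 0.29 (limma adjusted p = 0.0404). A snoRNA gene lies within the span of gars in the name table, and reads of overlapping genes could be shared.

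yars stood at 40.6, 30.3, 19.2, 52.4 and 49.6 RPM in WT1 to WT5 and at 13.8, 15.8, 22.6, 19.1 and 15.2 RPM in KO1 to KO5. Only WT3 lay inside the KO range. The log2 fold change was -1.04 ± 0.27 (limma adjusted p = 0.0378), and the span of yars overlaps a protein-coding gene known by a LOC number, so part of its reads is uncertain. Thus, in RPM as deposited, sars and gars were the cytosolic members with no overlap between groups, 2 of 18. On that scale 2.6% of all tested genes had every KO library below every WT library and 1.03% every KO library above. After division by the TMM factors KO1 lay above WT3 for both sars and gars, so the groups overlapped for these genes too.

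**Figure D1:**
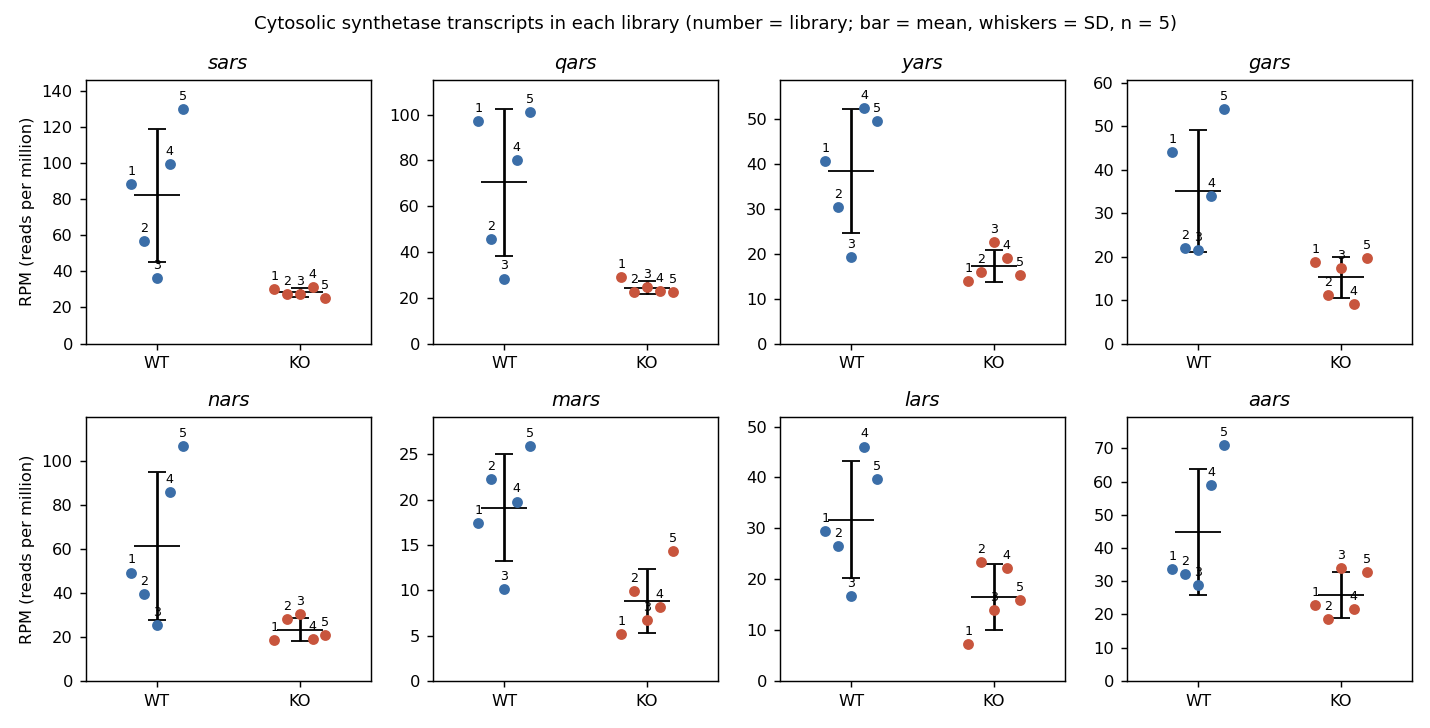
Level in RPM of 8 cytosolic synthetase genes in each WT (blue) and KO (red) library, with the library number beside each point, the mean as a bar and the SD as whiskers (n = 5). WT3 is the lowest WT point in each of the 8 panels, and the KO points of sars span 25.2 to 31.3 RPM against 36.1 to 130.2 in WT.

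The methionine and leucine enzyme genes, both of the complex, came next and did not pass. mars stood at 17.5, 22.2, 10.1, 19.8 and 25.9 RPM in WT1 to WT5 and at 5.16, 9.91, 6.76, 8.12 and 14.3 RPM in KO1 to KO5. KO5 alone lay above the lowest WT library, and the log2 fold change was -1.04 ± 0.30 (limma adjusted p = 0.0732). lars, whose product also senses leucine for TOR signalling in mammalian cells, stood at 29.4, 26.6, 16.6, 46.1 and 39.8 RPM in WT1 to WT5 and at 7.16, 23.3, 14.02, 22.1 and 15.9 RPM in KO1 to KO5. KO2 and KO4 lay above WT3 but below the other WT libraries, and the log2 fold change was -0.92 ± 0.31 (limma adjusted p = 0.136). WT3 was the lowest WT library for both genes, and without it both passed, mars at a limma adjusted p of 0.0131 and lars at 0.0309, where 3.2% of all tested genes fell. In the other 9 fits that left out 1 library neither passed, and the limma adjusted p reached 0.180 for mars and 0.318 for lars.

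The alanine, valine, isoleucine and aspartate enzyme genes also did not pass. aars stood at 33.5, 32.0, 28.8, 58.9 and 70.9 RPM in WT1 to WT5 and at 23.0, 18.5, 33.9, 21.5 and 32.6 RPM in KO1 to KO5. WT4 and WT5 carried its high values, and the other WT libraries lay within the KO range (log2 fold change -0.71 ± 0.27, limma adjusted p = 0.185). vars stood at 15.6, 13.3, 8.67, 26.0 and 44.0 RPM in WT1 to WT5 and at 4.00, 11.9, 10.8, 13.4 and 13.0 RPM in KO1 to KO5. Here too WT4 and WT5 were highest, and KO1 was far below the other KO libraries (-0.84 ± 0.38, limma adjusted p = 0.282). iars stood at 14.5, 5.78, 9.77, 20.7 and 33.8 RPM in WT1 to WT5 and at 5.00, 17.4, 7.01, 4.06 and 8.41 RPM in KO1 to KO5. KO2, KO3 and KO5 lay within the WT range, and the log2 fold change was -0.87 ± 0.41 (limma adjusted p = 0.300). dars stood at 72.9, 49.9, 78.2, 80.2 and 78.7 RPM in WT1 to WT5 and at 47.5, 50.2, 55.7, 58.3 and 43.4 RPM in KO1 to KO5. WT2 was the WT library inside its KO range, and WT3 was not low (-0.48 ± 0.19, limma adjusted p = 0.214). The spans of iars and dars, like those of eprs, hars, ears2 and aimp1, overlap a protein-coding gene, and that of fars2 a long noncoding RNA gene.

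The remaining 7 cytosolic genes, eprs, hars, cars, wars, farsa, farsb and kars, had log2 fold changes from -0.57 ± 0.30 (eprs) to -0.32 ± 0.17 (kars), and their limma adjusted p-values were 0.368 to 0.595. farsa and farsb encode the paired subunits of the phenylalanine enzyme, and they lay close together at -0.38 ± 0.24 and -0.32 ± 0.22. Both had their highest KO value in KO2, at 36.5 and 45.3 RPM. kars, whose human counterpart serves cytosol and mitochondria alike, averaged 234 ± 34.8 RPM in WT and 187 ± 29.1 in KO (SD, n = 5 each).

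**Figure D2:**
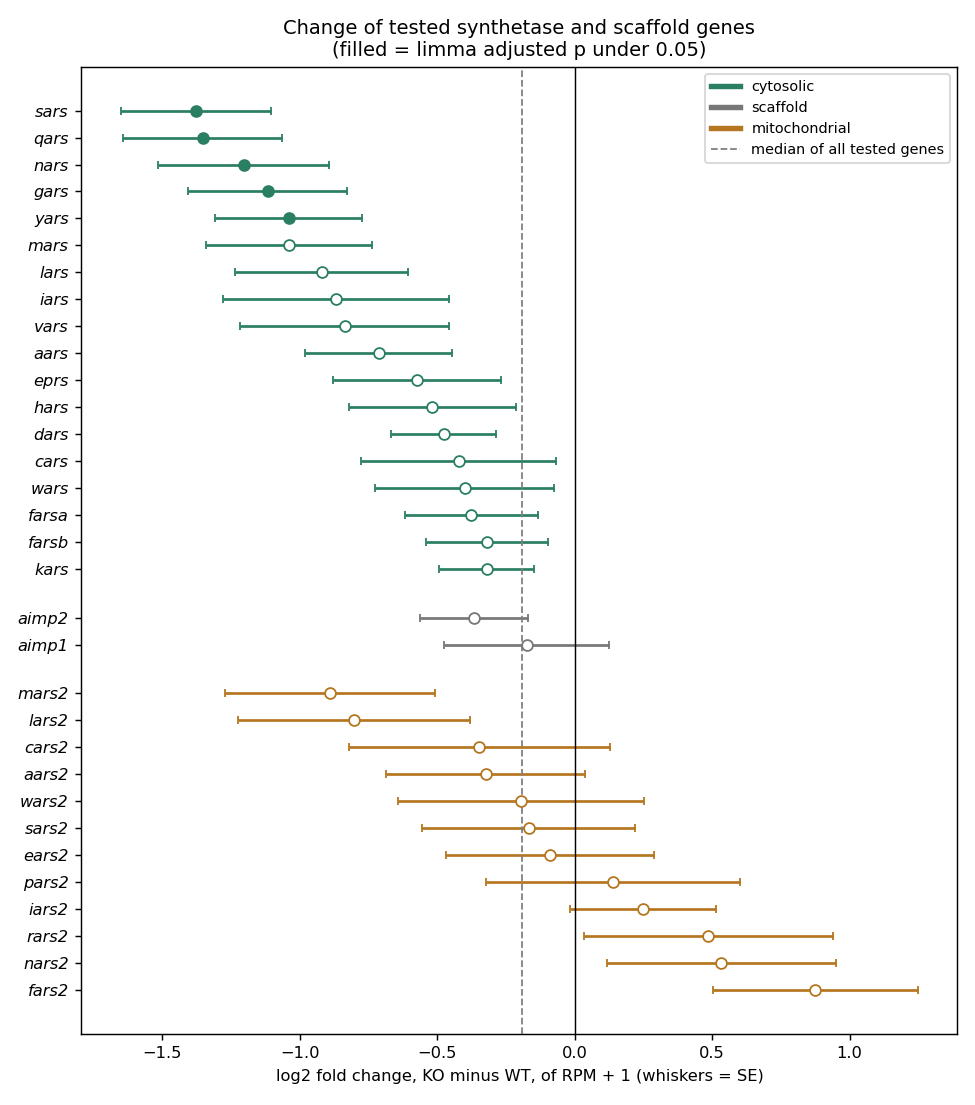
Log2 fold change of RPM + 1, KO minus WT, with its SE, for 32 of the 33 tested members in their 3 groups; filled points passed limma, and the dashed line is the median of all tested genes (-0.19). All 18 cytosolic points lie left of that line, while the 12 mitochondrial points lie on both sides of it.

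By role, against 1.68% of all tested genes, 2 of 8 cytosolic class I genes fell (median log2 fold change -0.89) and 3 of 9 class II genes (median -0.52), with eprs counted in neither because its product holds both classes. Of the 7 cytosolic enzymes of the multisynthetase complex, qars fell (median -0.87), and of the 11 outside it 4 fell (median -0.71). Of 11 enzymes known as ATF4 targets in mammalian cells, 4 fell (sars, nars, gars and yars; median -0.92), and of the other 7 qars fell (median -0.48). No difference between these divisions was tested.

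The scaffold genes did not pass. aimp1, whose product is also released as a cytokine, stood at 26.3, 14.7, 18.8, 23.3 and 21.5 RPM in WT1 to WT5 and at 7.66, 21.6, 31.5, 20.4 and 17.6 RPM in KO1 to KO5. Its groups overlapped widely (-0.17 ± 0.30, limma adjusted p = 0.818), and the sign turned under TMM scaling (0.020). aimp2 stood at 52.0, 52.5, 55.0, 63.6 and 77.1 RPM in WT1 to WT5 and at 54.8, 39.8, 55.8, 40.5 and 40.9 RPM in KO1 to KO5. KO1 and KO3 lay within the WT range (-0.37 ± 0.19, limma adjusted p = 0.369).

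Among mitochondrial synthetases no gene passed limma. An unadjusted limma p under 0.05 was found for 2 of 13, close to the share of all tested genes (2453 of 14984). edgeR and DESeq2, run on recovered reads of 9 libraries without KO5 and again of all 10, called none either, though DESeq2 gave no adjusted p for 11 of them on 9 libraries and for 2 on 10. fars2, the mitochondrial phenylalanine enzyme, stood at 1.04, 3.50, 1.84, 5.74 and 2.45 RPM in WT1 to WT5 and at 5.66, 5.06, 8.11, 3.11 and 7.32 RPM in KO1 to KO5. It was the mitochondrial member with the highest fold change, at 0.87 ± 0.37 (limma adjusted p = 0.247), and WT4 and KO4 crossed the other genotype's values. mars2, for methionine, stood at 7.26, 1.93, 4.24, 4.68 and 6.63 RPM in WT1 to WT5 and at 2.50, 0.660, 1.84, 2.27 and 3.66 RPM in KO1 to KO5. Apart from WT2 its WT values lay above its KO values (-0.89 ± 0.38, limma adjusted p = 0.253). The other 11 mitochondrial genes had log2 fold changes from -0.80 (lars2) to 0.53 (nars2), 5 of 13 in all being above 0. These counts leave out the untested vars2 and yars2. vars2 averaged 1.96 RPM in WT and 0.367 RPM in KO, and yars2 1.17 and 0.905 RPM. The ratio of means of vars2, KO to WT, was 0.187, lower than that of each tested member. It rests on 0 to 21 reads in a library, and the groups overlapped.

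These mitochondrial values rest on few reads. Mitochondrial members had 1 to 107 reads in a library, and 9 of 13 had fewer than 10 reads in some library. Cytosolic members had 16 to 2536 reads. The median SE of the log2 fold change was 0.39 for mitochondrial and 0.30 for cytosolic members, so a change of the cytosolic size was harder to call in the mitochondrial set.

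Cytosolic and mitochondrial enzymes of the same amino acid could be set side by side in 13 pairs, with eprs and fars2 in 2 pairs each. In 12 of them the log2 fold change of RPM + 1 of the cytosolic gene was the lower, and in 1 the higher. That scale shrinks changes of weakly expressed genes, so the order depends on it in part. By the ratio of mean RPM, KO to WT, mars2 (0.442), lars2 (0.504) and cars2 (0.649) lay below mars (0.464), lars (0.521) and cars (0.757). In the rest of the 12 the cytosolic gene stayed the lower. The widest gap in log2 fold change was that of nars (-1.20) and nars2 (0.53). Next came farsa (-0.38) and fars2 (0.87), then sars (-1.38) and sars2 (-0.17). Within single libraries the log2 ratio of sars to sars2 was 3.63 to 4.50 in WT and 2.07 to 3.96 in KO, and the groups overlapped in this ratio, as they did in each of the 13 pairs. mars and mars2 (-1.04 and -0.89) and lars and lars2 (-0.92 and -0.80) lay close to each other. The difference between the compartments was not tested.

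**Figure D3:**
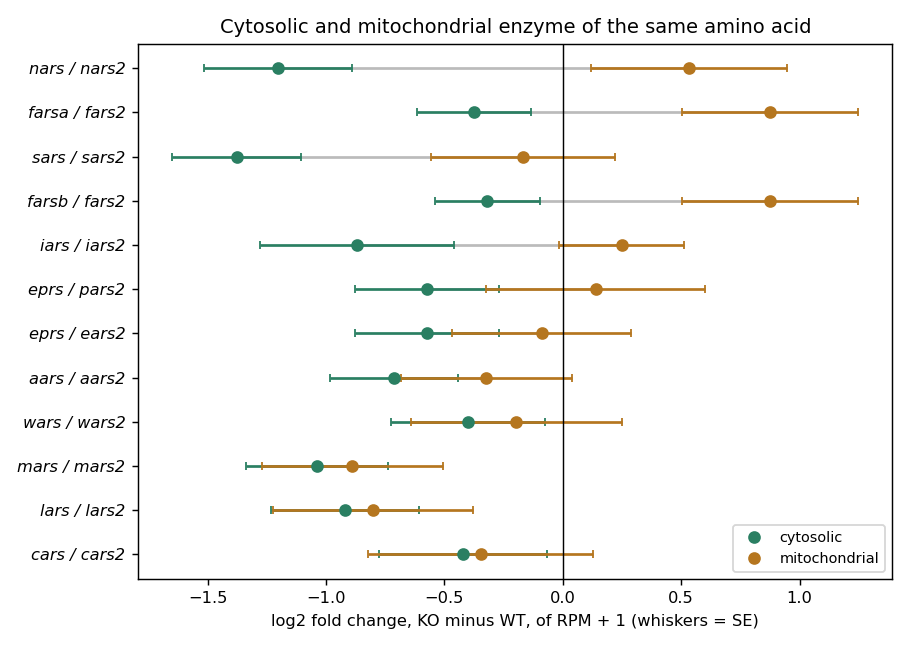
Log2 fold change of RPM + 1, KO minus WT, with its SE, of the cytosolic (green) and the mitochondrial (brown) enzyme gene of the same amino acid in 12 of the 13 pairs, ordered by their difference. The cytosolic point lies left of the mitochondrial one in these 12 pairs, while the pair not drawn has the opposite order, and the gap is widest for nars (-1.20) and nars2 (0.53).

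Summed over the 18 cytosolic genes, the level was 896, 651, 583, 1029 and 1178 RPM in WT1 to WT5 and 466, 530.1, 543, 567 and 492 RPM in KO1 to KO5. In RPM as deposited the KO libraries stayed within a narrow range below WT3, the lowest WT library. The means were 867 ± 250.5 RPM in WT and 519.7 ± 40.6 RPM in KO (SD, n = 5 each). After division by the TMM factors the sums of KO1, KO3 and KO4 lay above that of WT3, so the gap between the groups depends on scaling. The 13 mitochondrial genes summed to 86.4, 68.6, 53.3, 67.2 and 61.1 RPM in WT1 to WT5 and to 49.1, 72.4, 66.3, 58.3 and 57.5 RPM in KO1 to KO5, with wide overlap. The ratio of the cytosolic to the mitochondrial sum, which does not depend on how a library is scaled, was 9.48 to 19.3 in WT and 7.32 to 9.73 in KO, and KO4 lay above WT2.

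WT3 had the lowest WT value in 12 of the 18 cytosolic genes and WT5 the highest in 12. KO2 had the highest KO value in 6 of the 18. Its cytosolic sum (530.1 RPM as deposited) lay within the range of the other KO libraries. The TMM factor of KO2 was 1.11, against 0.773 to 0.964 in the other KO libraries, and under that scaling its sum is the lowest of KO. The egg protein share of KO2 (6.95%) was above that of WT3 (2.77%). A link between this share and the cytosolic sum was not tested. Without WT3 and KO2 together, 7 of 18 cytosolic genes fell, the same 5 with mars and lars, against 4.14% of all tested genes, and no mitochondrial gene passed. The log2 fold change of sars was then -1.62 and that of qars -1.61. WT5 also had the highest level of the pancreatic carboxypeptidase gene cpb1 and of the intestinal gene fabp2. cpb1 stood at 28.7, 41.3, 12.2, 74.8 and 208.2 RPM in WT1 to WT5. In KO1 to KO5 it stood at 71.9, 3.52, 43.5, 40.6 and 11.3 RPM. Among WT libraries WT3 was lowest and WT4 came next to WT5, as in the cytosolic sum. KO1, by contrast, had the highest cpb1 level and the lowest cytosolic sum of KO. A link between cpb1 and the cytosolic sum was not tested. fabp2 stood at 97.0 RPM in WT5, against 0 to 2.87 in the 9 others. Without WT5 all 18 cytosolic fold changes were still below 0, with a median of -0.53. Of these, 16 lay below the median of all tested genes (-0.21). sars and qars fell in that fit, where 137 of all 14984 tested genes fell.

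**Figure D4:**
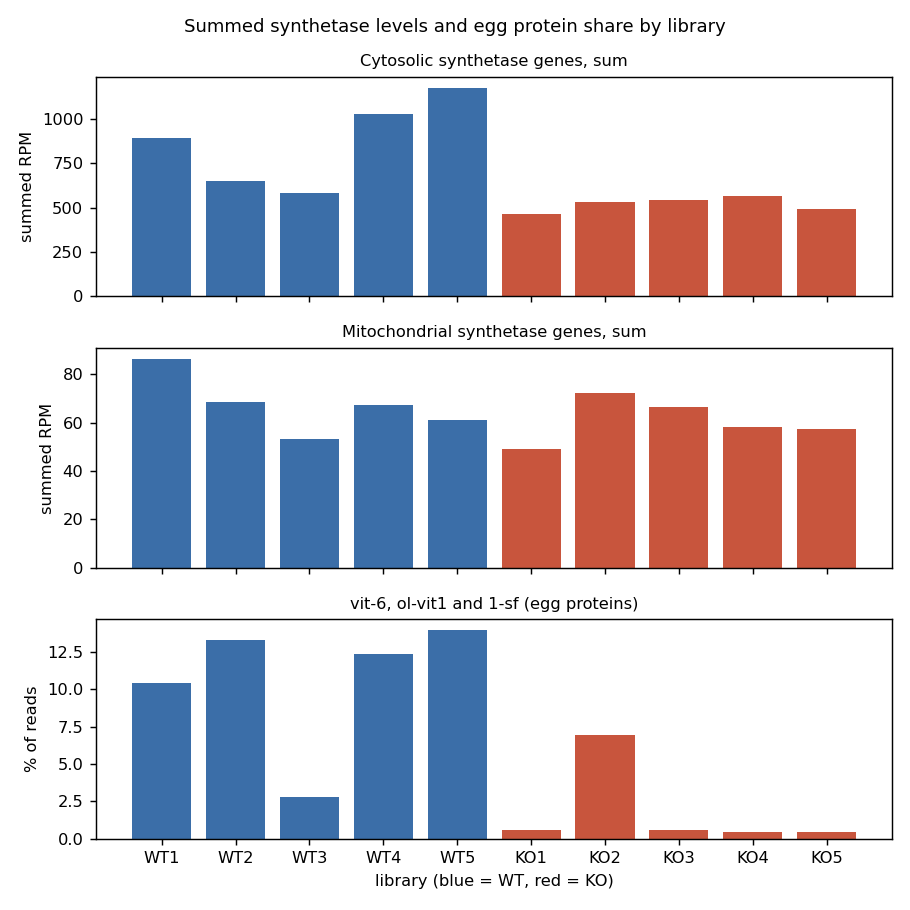
Summed RPM of the 18 cytosolic and the 13 mitochondrial synthetase genes, and the percentage of reads from 3 egg protein genes, in each WT (blue) and KO (red) library. Cytosolic sums as deposited are 583 to 1178 RPM in WT and 466 to 567 in KO, a gap that is lost under TMM scaling. WT3 and KO2 depart from their genotype in egg protein share.

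How many cytosolic genes passed depended on scaling and on single libraries. The median of all tested genes moved from -0.19 to -0.01 with TMM scaling, which turned the split of all called genes from 175 higher and 252 lower to 303 and 131. With TMM only sars of the 18 cytosolic genes passed (-1.17, limma adjusted p = 0.0330), against 0.874% of all genes lower, while all 18 still lay below 0 (median -0.58). With the replicate number as a block 3 passed, against 1.27% lower. edgeR on the 9 libraries without KO5 called 0 of 18, against 0.314% of all genes lower, with a lowest adjusted p of 0.0920. All 18 lay below 0 in that fit, where the median of all tested genes was -0.016. DESeq2 on the same reads called sars, qars, nars and mars lower, against 2.33% of the 7698 genes to which it gave an adjusted p. On the reads of all 10 libraries edgeR called sars and qars lower (adjusted p = 0.0288 and 0.0385), against 0.721% of all genes. DESeq2 on all 10 called sars, qars, yars and nars, against 2.32% of the 11460 genes to which it gave an adjusted p. In the 10 limma fits that each left out 1 library, sars passed in 10, qars in 8 and yars, gars and nars in 2 each. qars was lost without WT1 (limma adjusted p = 0.0583) and without WT4 (0.0531).

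**Figure D5:**
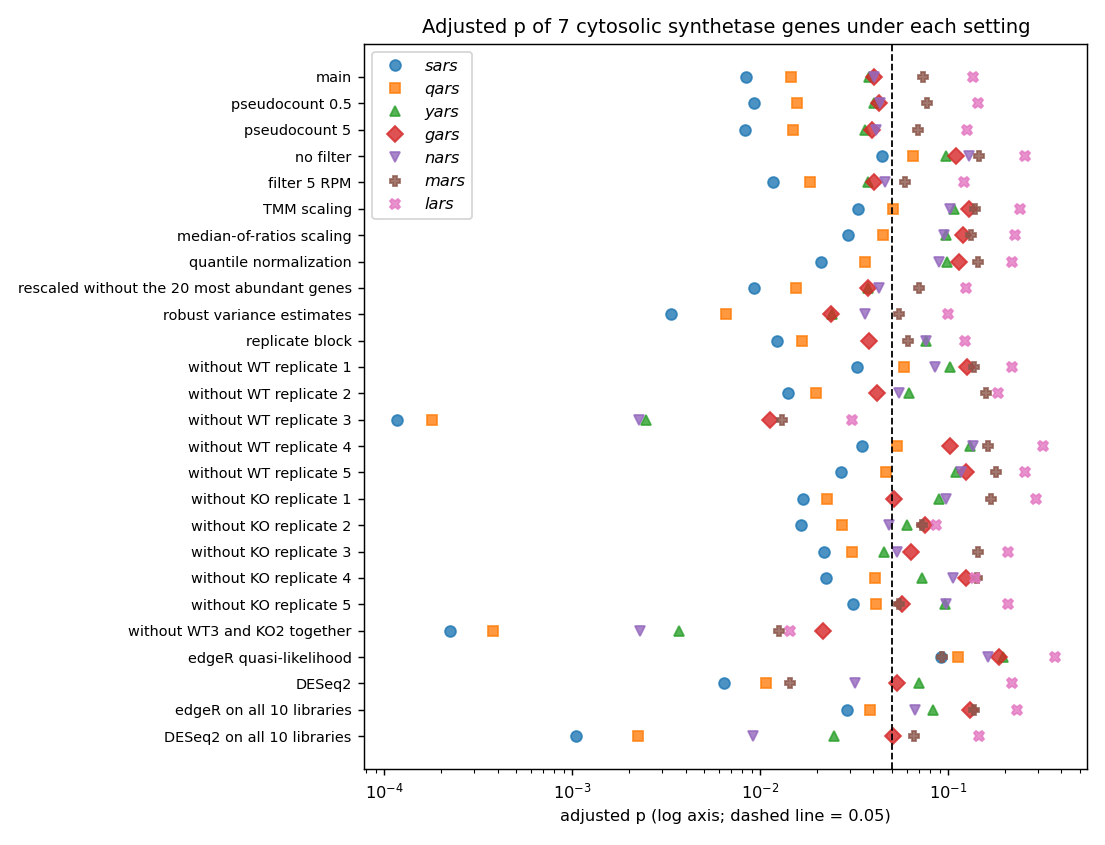
Adjusted p (log axis) of 7 cytosolic synthetase genes in the limma fit used throughout (top row, main) and under 25 other settings, with the threshold of 0.05 as a dashed line. sars lies left of the line in each row but edgeR quasi-likelihood on 9 libraries (0.0920), while yars, gars and nars lie close to it and cross it under TMM, median-of-ratios and quantile scaling and in most rows that leave out 1 library.

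Genes that help or follow tRNA charging did not pass. The unadjusted p counted for these lists is that of limma, which lay under 0.05 for 2453 of all 14984 tested genes. Of 13 helpers and editors of charging none passed limma (2 at an unadjusted p under 0.05; none with edgeR or DESeq2; median log2 fold change -0.12). eef1e1, a further scaffold of the multisynthetase complex, had mean levels of 43.3 (WT) and 40.8 RPM (KO), and ptrhd1, a putative peptidyl-tRNA hydrolase, of 25.2 and 24.1 RPM. Of 24 genes of tRNA processing and export none passed limma (1 at an unadjusted p under 0.05; none with edgeR or DESeq2; median -0.18), and ssb, whose product La binds newly made tRNA precursors, averaged 42.4 and 33.4 RPM. pop7, a subunit of RNase P, averaged 32.2 and 27.0 RPM. Of 7 elongation factor genes none passed limma (2 at an unadjusted p under 0.05; none with edgeR or DESeq2; median -0.38). eef1b2 and eef1g, subunits of the factor that recharges eEF1A with GTP, had log2 fold changes of -0.38 ± 0.16 and -0.16 ± 0.15.

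A list of 13 genes around the initiation factor eIF2 held the kinase genes eif2ak3 and eif2ak4 (GCN2), gcn1, impact, eif2d and the subunits of eIF2 and of its exchange factor. None passed limma or edgeR, or DESeq2 on 9 libraries (median -0.21). An unadjusted limma p under 0.05 was found for 2, against 2453 of all 14984 tested genes. DESeq2 on all 10 libraries called 1, impact, whose product inhibits GCN2 in mammals. Of all genes to which that fit gave an adjusted p, 2.32% were called lower and 3.87% higher. The eIF2 subunit genes eif2s3 and eif2s1 averaged 113.7 and 88.6 RPM in WT and 87.3 and 79.4 RPM in KO. Of 22 tested genes of the amino acid response, 3 fell and 1 rose, against 1.68% and 1.17% of all tested genes, and 18 did not pass (median -0.32). Those that fell were chac1, a glutathione-degrading enzyme, phgdh of serine synthesis and asns of asparagine synthesis, at -2.69 ± 0.51, -2.31 ± 0.56 and -2.16 ± 0.55 (limma adjusted p = 0.00646, 0.0300 and 0.0389). The gene that rose was ddit4, an inhibitor of TOR signalling (2.06 ± 0.31, limma adjusted p = 0.00138). With TMM scaling (0.874% of all genes lower and 2.02% higher), and with edgeR on 9 libraries (0.314% and 0.874%), chac1 and ddit4 were the members of this list that passed. asns passed besides with DESeq2 on 9 libraries (2.33% and 4.03%) and with edgeR on 10 (0.721% and 1.51%), and phgdh and psat1 also with DESeq2 on 10 (2.32% and 3.87%). asns stood at 20.2, 12.6, 1.66, 33.4 and 41.0 RPM in WT1 to WT5, with WT3 lowest and WT5 highest as in sars, and at 0.999 to 4.54 RPM in KO. phgdh was lowest in WT3 (8.48 RPM) and highest in WT5 (82.9 RPM) too. atf4 itself averaged 181 ± 28.6 RPM in WT and 147 ± 46.9 in KO (SD, n = 5 each; limma adjusted p = 0.448).

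Markers of other cell types were matched by symbol in part. Those high enough to be tested were 2 of 3 matched for cholangiocytes, 5 of 8 for stellate cells, 3 of 5 for endothelium, 1 of 6 for lymphocytes, 2 of 4 for neutrophils, 1 of 1 for exocrine pancreas, 1 of 2 for endocrine pancreas and 1 of 1 for intestine. None of these passed limma, and none of 6 erythrocyte markers was matched. The 1 macrophage and 4 ovary markers that were matched were too low to be tested. Summed levels were 84.4 to 112 RPM in WT and 99.3 to 154 in KO for cholangiocytes, 418 to 1762 and 819 to 1837 for neutrophils, mostly lyz, and at most 54.4 for stellate, endothelial, lymphocyte, macrophage, endocrine and ovary markers. postn and rag1 were at 0 in all libraries. Of 5 tested hepatocyte markers hpx rose (1.30 ± 0.24, limma adjusted p = 0.00454), where 1.17% of all tested genes rose. The others, fgg, fgb, rbp4 and fga, did not pass limma. hpx averaged 5159 RPM in WT and 12080 RPM in KO, and these levels are part of the summed hepatocyte level given above. The part of cell composition and of egg protein output in the synthetase result was not tested.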

How the data were processed

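Liver RNA of 5 WT and 5 KO medaka libraries was used, grouped by the library titles. The authors deposited 1 table of RPM, which sums to 1000000 in each library without division by gene length. Lasy-Seq libraries are named in the labels' protocols, and BWA 0.7.17-r1188 and Salmon 1.4.0 in the submitters' processing notes, with no role. The genome build is not given in the sources used here. Symbols of all 25795 gene IDs, and overlaps between genes, came from RefSeq's gene table of assembly ASM223467v1.

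A gene was tested if 5 or more libraries reached 1 RPM, on log2(RPM + 1) with limma 3.58.1 (R 4.3.3), with a variance trend and genotype as the only term; two-sided p-values were adjusted by Benjamini-Hochberg over 14984 genes, with a threshold of 0.05. Every value of all 10 libraries was a whole multiple of the smallest value above 0, within 1e-06 of a read, which gave back read counts. The count tests, edgeR 4.0.16 (quasi-likelihood) and DESeq2 1.42.0, were run without KO5, whose step lies so close to 0.1 RPM that the criterion for recovered reads did not accept it, and, as an alternative chosen after seeing the data, on all 10 libraries. All pairs of libraries of a genotype differed by a chi-square per degree of freedom of 15.3 to 156, so none was counted as a duplicate. The limma step was run on simulated data in which genes varied independently with the same dispersion. That run checks the code and does not cover library-wide differences such as those of WT3 and KO2. Alternatives were other pseudocounts, filters, scalings, variance estimates, a replicate block, the count tests and leaving out libraries.

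The members, the lists (symbols matched exactly or with a final a or b) and the libraries left out together were chosen with earlier results of these data known. The text gives values in every library for called members, then for members by smallest p up to 14 in all, including the 3 mitochondrial ones with the smallest p, and for both scaffolds. In other lists it gives the members called by limma, up to 4, or the 2 with the highest mean RPM. Of the list of egg proteins and the estrogen receptor, only the summed share of vit-6, ol-vit1 and 1-sf is given. impact and psat1, which limma did not call, were named for their DESeq2 calls on all 10 libraries. atf4 and the markers hpx, cpb1, fabp2 and lyz were named after their values were seen. Figures used Python 3.11.15 with matplotlib 3.10.9. 1 member that this rule names, and its pair, are counted in every total but are not reported here. No sequences are shown.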

Additional observations from a re-analysis of the deposited data

Results flagged for a closer look

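In 4 of 66 groups of 5 libraries (33 genes in 2 genotypes) 1 library lay far from the other 4, its gap to the nearest being over 0.71 of the group's range, where chance flags about 1 in 20. cars was high in WT5, at 19.0 RPM against 7.26 to 9.22 in the other WT libraries. dars was low in WT2, at 49.9 RPM. vars was low in KO1, at 4.00 RPM. pars2 was high in KO2, at 5.50 RPM.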

How the results depend on the processing

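All 18 cytosolic synthetase genes lay below 0 under each of 25 alternatives, and 16 to 18 of them below the median of all genes; no cytosolic gene rose and no mitochondrial gene was called, though the 5 RPM filter left 6 of the 13 mitochondrial genes to test and DESeq2 gave no adjusted p for 11 of them on 9 libraries and for 2 on 10. The number of cytosolic genes that fell, 5 of 18, was 1 without a filter, 1 with TMM, 2 with median-of-ratios and 2 with quantile scaling, 0 with edgeR on 9 libraries, 2 with edgeR on all 10 (added after seeing the data) and 7 without WT3 and KO2 together. Leaving out 1 library gave 1 to 7: 1 without WT1 or WT4, 2 without WT5, KO1, KO4 or KO5, 3 without WT2, KO2 or KO3, and 7 without WT3. Over all tested genes, 104, 127, 479, 109 and 137 fell in the fits without WT1 to WT5 in turn. Without KO1 to KO5 in turn 167, 291, 166, 139 and 143 fell, so the calls of all genes moved as well. The median of the cytosolic genes was then -0.92 to -0.53, and that of the mitochondrial genes -0.36 to 0.071. The mitochondrial median was 0.020 with quantile scaling, 0.14 with edgeR and DESeq2, and -0.44 without WT3 and KO2. Over all genes 175 rose and 252 fell. These counts were 73 and 103 without a filter, where more genes are tested, 303 and 131 with TMM, 296 and 143 with median-of-ratios, 231 and 165 with quantile scaling, 131 and 47 with edgeR, 310 and 179 with DESeq2, 226 and 108 with edgeR on 10 libraries, 444 and 266 with DESeq2 on 10, and 424 and 621 without WT3 and KO2. Leaving out 1 library gave 94 to 365 and 104 to 479.

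The sign of some uncalled members turned. aimp1 was at 0.020 with TMM, 0.0087 with median-of-ratios, 0.13 with edgeR, 0.13 with DESeq2, 0.095 and 0.084 with these on 10 libraries and, leaving out 1 library, between -0.37 and 0.11 (without KO1). ears2 was at 0.084 with TMM, 0.075 with median-of-ratios, 0.12 with quantile scaling, 0.14 with edgeR and, leaving out 1 library, between -0.27 and 0.18 (without WT1), with 0.071 without KO5. sars2 was at 0.020 with quantile scaling, 0.033 with edgeR, 0.067 with edgeR and 0.061 with DESeq2 on 10 libraries and 0.10 without KO4. wars2 was at 0.28 with edgeR, 0.0094 with edgeR and 0.0064 with DESeq2 on 10 libraries and, leaving out 1 library, between -0.45 and 0.14 (without KO5). pars2 was between -0.16 (without KO2) and 0.40, with -0.15 without WT2. The cause of these changes was not tested.

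Deviations of same-numbered WT and KO libraries from their group means correlated at -0.081 to 0.00083, and no WT library correlated best with its own number. With 5 libraries per genotype these values cannot exclude a shared batch, which the labels do not give. With the replicate number as a block, 3 of 18 cytosolic genes fell (sars, qars and gars), against 1.27% of all genes.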

Other observations

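In WT, sars ranked the libraries from WT3 through WT2, WT1 and WT4 up to WT5. Of the other 17 cytosolic synthetase genes 3 (aars, nars and vars) had the same order, of 13 mitochondrial ones 0, and of 22 amino acid response genes 3 (psat1, asns and chac1), against 0.961% of all tested genes. chac1 stood at 357, 157, 70.4, 839 and 1019 RPM in WT1 to WT5 and at 37.0 to 79.4 RPM in KO. psat1, a serine synthesis gene, stood at 14.9, 11.4, 5.90, 20.4 and 40.6 RPM in WT1 to WT5 and did not pass limma (-1.22 ± 0.39, adjusted p = 0.110). This order was picked after the values of sars were seen, and was not tested. On the log2 scale of RPM as deposited, 13 of 18 cytosolic genes had a larger SD among WT than among KO libraries. So had 9 of 13 mitochondrial genes, against 48.4% of all tested genes.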
